A study of Mus musculus with 7 samples.

Results

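The 4 control prostate samples of the series, out of 7 samples in all, were compared with the universal mouse reference RNA that shared each of their arrays. The samples were chosen by label alone, as the arrays titled WT1 to WT4, named controls 1 to 4 here, and the PB-NICD arrays were not used. Per the labels, the mice had a C57Bl/6 background and were control ROSA(N1IC) animals, described as NICD wild-type, where NICD is the Notch1 intracellular domain. The ROSA(N1IC) allele is known to keep this domain silent until Cre acts, and the ARR2PB-Cre transgene is named for the PB-NICD samples alone. The labels give no age and do not say which lobes were taken. They also do not say whether each sample came from its own animal, so every p-value below measures the spread between these 4 samples, which may be technical. Total RNA of the prostate was extracted with Trizol, copied to labelled cDNA and read in the red channel. The Stratagene Universal Mouse Reference RNA, a pool of RNA from mouse cell lines, was read in the green channel on all 4 arrays.

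The mouse prostate is a set of paired glandular lobes whose luminal cells secrete seminal proteins under the control of androgens. Basal cells line the ducts beneath them, and a sheath of smooth muscle and fibroblasts surrounds each duct. A secreted protein is made on ribosomes at the endoplasmic reticulum, passes into it through the Sec61 channel, is folded and glycosylated there, and leaves for the Golgi in coated vesicles. The reference pool comes from dividing cultured cells, so each ratio sets a gland against a mixture of growing cell lines.

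Agilent arrays read both colours on each spot, and the measurement was the log2 ratio of prostate over reference, after background correction and a loess curve within each array. A value of 1 is 2-fold more signal in the prostate, 0 is an equal signal, and a negative value is a lower signal in the prostate. The prostate channel was dim, with a median spot signal of 69 to 87.5 over a local background of 53 to 55, against 325.5 to 423 over 26 in the reference channel. The scanner software marked 44.8% to 60.7% of probes as well above background for the prostate and 73% to 89% for the reference. Ratios were reproducible between arrays, with r from 0.92 to 0.951 across the 17272 items with values on all 4 arrays. The items are genes or unnamed transcripts, and they are not independent replicates. The number of arrays limits the precision.

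Control 2 stood apart in its seminal vesicle proteins, which belong to the gland next to the prostate. With outlier spots kept, 9 of the 10 listed seminal vesicle genes were on the array. The androgen-dependent seminal vesicle protein Svs4 gave log2 ratios of 2.36, 9.39, -0.03 and -0.28 on controls 1 to 4. Its relative Svs5 gave 3.79, 8.35, 0.05 and -0.20, so both were high on control 2, raised on control 1 and near 0 on controls 3 and 4. Svs6 reached 4.43, Pate4 4.57, Svs2 3.20 and Ceacam10 2.06 on control 2, and none of these 4 exceeded 0.38 on another array. Sva, Svs1 and Svs3a stayed between -0.60 and 0.29 on all 4 arrays. In all, 2, 6, 0 and 0 of the 9 genes were at least 4-fold above the reference on controls 1 to 4, with list medians of 0.00, 3.20, -0.01 and -0.20. Wfdc15b, a whey acidic protein family member, and Cdo1, the enzyme of cysteine oxidation, were likewise high on control 2 alone, at 3.39 and 2.68.

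Control 1 was the highest array for several fast skeletal muscle genes. Of the 21 striated muscle genes on the array, 5, 1, 1 and 2 were at least 4-fold above the reference on controls 1 to 4. The fast troponin gene Tnni2 gave 3.06 on control 1 against 0.65 to 0.69 on the other arrays. The myosin light chain genes Mylpf and Myl1 gave 3.98 and 3.69 on control 1, against 1.50 to 1.96 and 1.35 to 2.51 elsewhere. Acta1, the skeletal alpha-actin, was high on all 4 arrays, from 4.13 to 4.95. The myosin heavy chain genes differed. The slow chain Myh7 and the adult chain Myh1 lay between -0.55 and -0.07, with 0.68 at another Myh1 probe. Myh4 averaged 1.34 on 3 arrays and Myh2 averaged 0.31, both called higher. The part of these neighbouring tissues in the results below was not tested, and values without control 1 or 2 are given where they differ.

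**Figure D1:**
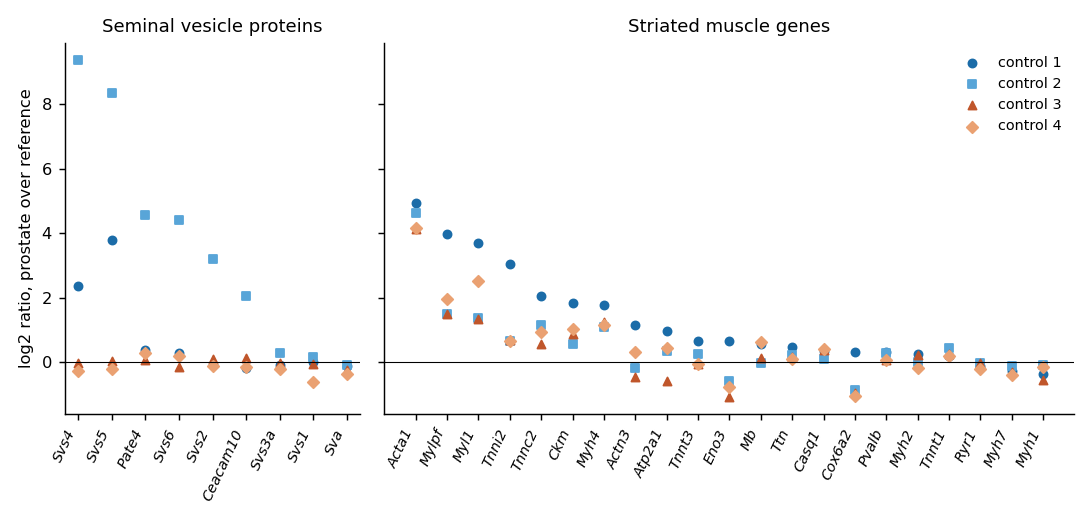
Log2 ratio of prostate over reference (vertical axis) for seminal vesicle genes (left) and striated muscle genes (right), 1 symbol per control array, with outlier spots kept. Svs4 and Svs5 reach 9.39 and 8.35 on control 2 and lie near 0 on controls 3 and 4, and Tnni2, Mylpf and Myl1 are highest on control 1.

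Across the array, 22366 items were tested, of which 13935 were named genes. An item was called when limma's moderated test of the mean ratio against 0 had a Benjamini-Hochberg adjusted p below 0.05 and all arrays with a value had the same sign. By this rule 6009 items, 26.9%, were higher in the prostate and 5157 items, 23.1%, were lower. After loess 616 items (2.75%) were called at least 4-fold higher and 128 (0.572%) at least 4-fold lower, a balance that reversed with median centring, to 228 and 1337. The median of all items was -0.04, with a 5th percentile of -0.66 and a 95th percentile of 1.54. Because the dyes were not swapped, dye and RNA source cannot be told apart in any of these ratios. In whole tissue, moreover, fewer cells of a type and less RNA per cell cannot be told apart.

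The balance of higher and lower items depended on the scaling. Loess sets the ratio near 0 at every brightness. When each array was instead centred on its median, the dimmest of 5 equal groups of items had a median of 0.83 and the brightest -1.46, against -0.05 and 0.10 after loess. The median of all items moved from -0.04 to -0.32 with median centring and to -0.41 with the processed signals of the scanner software. Higher calls then made up 36.6% and 34.4% of all calls, against 53.8% with loess. Of the 616 items at least 4-fold higher after loess, 606 were still called higher with median centring, whatever their size there, and all 128 at least 4-fold lower were still called lower. Gene groups are described by their counts and their median after loess, and for many groups by the distance of that median from the median of all items under both scalings.

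**Figure D2:**
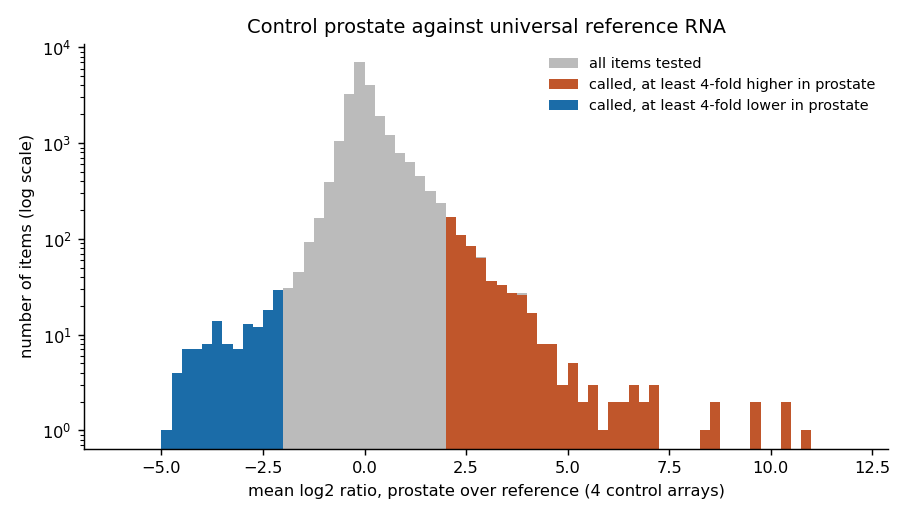
Number of items (vertical axis, log scale) by mean log2 ratio of prostate over reference on the 4 control arrays (horizontal axis). Items called at least 4-fold higher (616) are in orange and at least 4-fold lower (128) in blue, and the means run from -4.81 to 10.87.

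Secreted proteins of the prostate lobes had the largest ratios on the array. Of 26 listed genes, 20 were tested, 14 were called higher, all of them at least 4-fold, and 1 was called lower, against the 26.9% and 23.1% of all items. Their median log2 ratio was 3.40, which stood 3.44 above the median of all items after loess and 2.89 above it with median centring. Without control 2 the list median was 4.13, and within controls 3 and 4 alone it was 4.21.

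Probasin, the androgen-driven secreted lipocalin encoded by Pbsn, gave log2 ratios of 11.70, 11.29, 10.06 and 10.44 on controls 1 to 4. The mean was 10.87 ± 0.76 (SD, n = 4), or 1876-fold, with an adjusted p of 1.61e-10 in limma's fit. The reference was above background on 3 arrays, so the size of this ratio is uncertain. All 4 arrays were far above 0, and controls 1 and 2 lay above controls 3 and 4. The spermine-binding protein Sbp, a major secretion of the ventral lobe, gave 11.49, 10.38, 10.13 and 9.50, a mean of 10.37 ± 0.83 (SD, n = 4). Transglutaminase 4 (Tgm4), which cross-links proteins of the copulatory plug, gave 10.46, 9.99, 9.18 and 8.58, a mean of 9.55 ± 0.84 (SD, n = 4). Defb50, a beta-defensin of the prostate, gave 10.75, 9.91, 9.09 and 9.04. Control 1 was the highest array for each of these 4 genes.

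Further secreted products followed at lower ratios. Sbpl, a near copy of Sbp whose probe could share its RNA, had a mean of 8.72 and 9530002B09Rik a mean of 8.67. The beta-microseminoprotein gene Msmb gave 5.36, 4.56 and 3.93 on the 3 arrays with a value. Apof, an apolipoprotein, gave 4.87, 3.49, 3.22 and 5.28, high on controls 1 and 4. For 9530002B09Rik and Apof the reference was above background on 3 arrays. Adipsin, encoded by Cfd and also a product of fat cells, gave 2.40, 3.57 and 0.94 on 3 arrays. Wfdc3, a protease inhibitor of the whey acidic protein family, averaged 3.73, and Azgp1, a zinc-binding glycoprotein, averaged 2.96. Clusterin (Clu), a secreted chaperone, averaged 2.05 with values from 1.57 to 2.60. The sulfotransferase Sult1c2 was the 1 listed gene called lower, at -0.45 ± 0.07 (SD, n = 4).

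**Figure D3:**
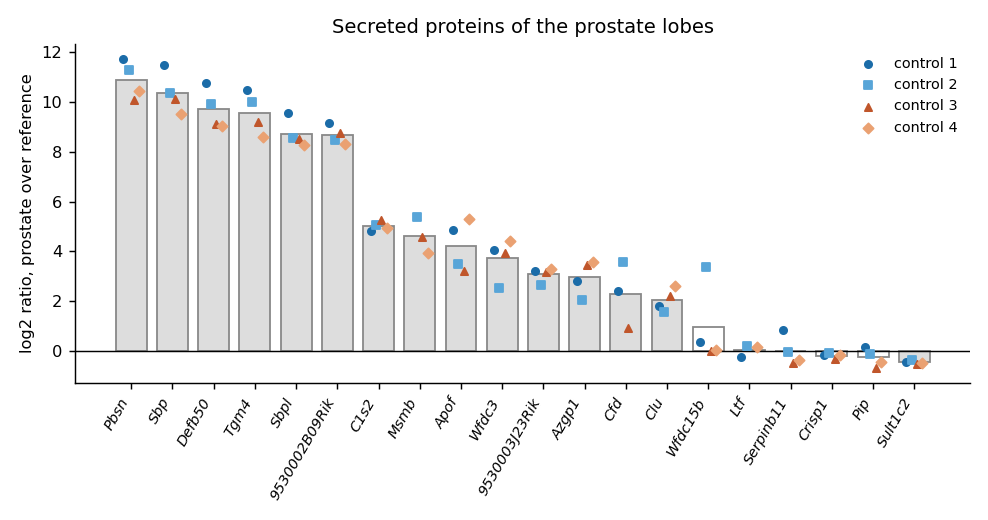
Log2 ratio of prostate over reference (vertical axis) for the 20 tested genes of the secreted list. Bars are means, filled where the gene was called, and symbols are the control arrays; Pbsn and Sbp exceed 9 on all 4 arrays, while Wfdc15b rests on control 2.

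The promoter of Pbsn is shown because its androgen control is the textbook case for this tissue. The sequence is from RefSeq on GRCm38.p6, 250 bases 5′ to 3′ ending just before the annotated start. Capitals mark the letters AGAACA, an androgen response half-site. Full androgen response elements were not sought, so the capitals need not mark the sites behind that control.

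Pbsn, chrX:77853501-77853750, strand minus: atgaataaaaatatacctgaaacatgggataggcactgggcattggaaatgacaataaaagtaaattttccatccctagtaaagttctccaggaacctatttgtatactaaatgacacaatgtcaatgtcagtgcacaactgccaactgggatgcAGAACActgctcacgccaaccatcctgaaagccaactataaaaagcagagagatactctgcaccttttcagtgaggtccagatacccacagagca

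These letters, sought on both strands, occurred in 7 of 19 genes of the secreted list (36.8%) and in 18.2% of all 27025 genes. A gene was counted if any of its promoters of this length matched. Besides Pbsn they occurred in Sbp and 9530002B09Rik, both called higher, in Wfdc15b and Pip, whose means of 0.95 and -0.26 were not called, in Sult1c2, which was called lower, and in Mmp7, which was not tested. A match is a description of the letters and not a shown binding site.

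Luminal epithelial markers, which check the tissue label, were high. Of 17 tested markers, which share Pbsn with the secreted list, 16 were called higher and 12 of them at least 4-fold, with a median of 3.43. Cldn8, a tight junction claudin, averaged 6.65 with arrays from 6.09 to 7.40, but its reference was above background on 1 array. Cldn3 ranged from 4.21 to 4.45 and the sodium pump subunit gene Atp1b1 from 3.99 to 4.58. Tmprss2, the androgen-regulated membrane protease, gave 1.11, 1.00, 2.29 and 2.49, with both slide 1 arrays below both slide 2 arrays and the reference above background on 2 arrays. Krt19 averaged 3.79, and Krt8, the simple epithelial keratin, averaged 1.55 after loess but -0.20 with median centring. Cd38, an NAD-consuming ectoenzyme, was the 1 marker called lower, at -0.56 ± 0.17 (SD, n = 4).

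Prostate lineage transcription factors were mostly higher. Of 21 tested, 15 were called higher, 7 at least 4-fold, and 1 lower, with a median of 1.45. Gata2, a zinc finger factor, averaged 5.13 ± 0.13 (SD, n = 3). The pioneer factor Foxa1 averaged 3.40 ± 0.23 (SD, n = 3). Tbx3, a T-box factor, gave 2.99, 2.43, 4.33 and 3.69, and Ehf, an epithelial ETS factor, averaged 2.76. Hoxb13, the posterior homeobox factor of the prostate, gave 2.28, 2.04, 2.09 and 1.78. The estrogen receptor gene Esr1 averaged 1.83. Elf3, also an epithelial ETS factor, was called lower at -0.32, with the prostate above background on 1 array.

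Epithelial junction genes followed the luminal markers. Of 27 tested, 23 were called higher and none lower, 11 were at least 4-fold higher, and the median was 1.50. The claudin gene Cldn7 averaged 4.39, the vesicle GTPase gene Rab25 averaged 4.25, and Epcam, an epithelial adhesion molecule, averaged 2.98. Esrp1, an epithelial splicing factor, gave 2.73, 2.96, 2.21 and 3.77. E-cadherin, encoded by Cdh1, gave 2.16, 2.29, 3.36 and 3.31, lower on both arrays of slide 1.

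Basal epithelial markers were mixed. Of 15 tested, 7 (46.7%) were called higher and 3 (20%) lower, against 26.9% and 23.1% of all items. The median of 0.28 turned to -0.82 with median centring. The keratin genes Krt15 and Krt5 averaged 3.10 and 1.90. Krt14 gave 0.45, 0.38, -0.01 and 0.18 after loess and was not called, because its sign differed between arrays. Col17a1, the hemidesmosomal collagen, averaged -1.40 with the prostate above background on 1 array, and another of its probes gave 0.00. Dst, a linker of hemidesmosomes, averaged -0.46 and Krt17 averaged -0.27. Krt17 lost its call without control 1, 2 or 4, and Dst without control 1, with adjusted p from 0.0798 to 0.114 in limma's fit. Among 5 tested urothelial genes, Upk1b averaged 3.64, Krt13 3.08 and Gata3 2.31, whereas the defining uroplakin genes Upk2 and Upk3a lay between -0.25 and -0.05 with outlier spots kept. None of the 4 tested neuroendocrine markers was called higher.

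The machinery that brings proteins into the endoplasmic reticulum was higher almost throughout. Of 36 tested genes for entry and N-glycosylation, 34 were called higher and none lower, 16 at least 4-fold, with a median of 1.90. The median stood 1.94 above that of all items after loess and 0.78 above it with median centring. Ssr4, a subunit of the translocon-associated complex, gave 4.37, 3.80 and 4.14 on the 3 arrays with a value. Sec11c, a catalytic subunit of the signal peptidase, gave 3.96, 3.89, 3.55 and 4.05. Of the Sec61 channel genes, Sec61b averaged 3.49 and Sec61a1 averaged 2.82, and Tram1, a membrane protein beside the channel, averaged 3.30 with arrays from 3.16 to 3.41.

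Chaperones and folding enzymes of the reticulum were mostly higher. Of 24 tested, 18 were called higher, 13 of them at least 4-fold, and 1 was called lower, with a median of 2.38. Their median stood 2.41 above that of all items after loess and 1.30 above it with median centring. BiP, the Hsp70 chaperone of the reticulum encoded by Hspa5, gave 2.81, 3.56, 3.31 and 3.58, a mean of 3.32 ± 0.36 (SD, n = 4) and an adjusted p of 4.92e-09 in limma's fit. Control 1 was the lowest array, and the others ran from 3.31 to 3.58. The co-chaperone genes Dnajc3 and Dnajb9 averaged 4.14 and 4.02, and the prolyl isomerase gene Fkbp11 averaged 4.12. Pdia6, a disulfide isomerase, gave 3.40, 3.99, 3.71 and 3.61. Sdf2l1, a chaperone partner, averaged 3.51, and the secreted stress protein gene Manf averaged 2.95. The calcium-binding lectin chaperone gene Calr averaged 2.33, and its membrane counterpart Canx averaged 1.12 after loess but -0.22 with median centring. Ero1a, the oxidase that recharges disulfide isomerases, was lower at -2.09, -3.08 and -2.61 on 3 arrays, while its paralogue Ero1b averaged 0.16 after loess, -0.19 with median centring, and was not called.

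Some members of this group carry promoter letters that were sought without use of the array values. The endoplasmic reticulum stress response element, known to be bound by NF-Y together with ATF6, was sought as CCAAT and CCACG with 9 bases of any kind between them, on both strands of the 250 bases before each start. It occurred in 35 of 27025 genes (0.13%), counted where any promoter of the gene matched, and in 8 of 27 genes of the folding list (29.6%). The element is named for reticulum stress and the list holds reticulum genes, so this share is a description and not a test. Of these 8 genes, Hspa5, Hsp90b1, Calr, Canx, Dnajc3 and Pdia6 were called higher, Ero1b was not called and Creld2 was not tested. In the list for degradation and stress factors it occurred in 2 of 20 genes, Derl3 and Syvn1. It was found in none of the 30 entry, 31 cargo, 19 secreted and 40 replication and mitosis genes searched. Its first letters are CCAAT, which alone occurred in 37.5% of all genes, in 22 of 27 of the folding list and in 15 of 20 of the degradation list. The promoters below, from RefSeq on GRCm38.p6, are shown because they carry the full element in genes called higher, with capitals on each match; where capitals begin with CGTGG the match reads on the opposite strand.

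Hspa5, chr2:34771840-34772089, strand plus: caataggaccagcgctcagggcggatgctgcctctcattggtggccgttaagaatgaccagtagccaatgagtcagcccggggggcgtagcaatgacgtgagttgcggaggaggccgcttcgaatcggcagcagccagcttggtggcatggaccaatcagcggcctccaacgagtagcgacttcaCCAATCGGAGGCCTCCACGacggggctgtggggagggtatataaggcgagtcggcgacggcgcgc
Dnajc3, chr14:118937682-118937931, strand plus: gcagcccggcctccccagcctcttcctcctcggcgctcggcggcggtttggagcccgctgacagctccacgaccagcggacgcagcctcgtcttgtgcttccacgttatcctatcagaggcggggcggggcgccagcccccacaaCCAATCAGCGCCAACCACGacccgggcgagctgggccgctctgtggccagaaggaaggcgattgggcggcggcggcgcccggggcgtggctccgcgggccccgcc
Pdia6, chr12:17266339-17266588, strand plus: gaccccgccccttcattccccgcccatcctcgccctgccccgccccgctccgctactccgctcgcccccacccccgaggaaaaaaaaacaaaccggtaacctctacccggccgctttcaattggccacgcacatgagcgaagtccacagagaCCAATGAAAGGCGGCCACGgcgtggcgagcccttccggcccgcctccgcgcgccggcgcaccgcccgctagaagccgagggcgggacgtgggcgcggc
Hsp90b1, chr10:86705445-86705694, strand minus: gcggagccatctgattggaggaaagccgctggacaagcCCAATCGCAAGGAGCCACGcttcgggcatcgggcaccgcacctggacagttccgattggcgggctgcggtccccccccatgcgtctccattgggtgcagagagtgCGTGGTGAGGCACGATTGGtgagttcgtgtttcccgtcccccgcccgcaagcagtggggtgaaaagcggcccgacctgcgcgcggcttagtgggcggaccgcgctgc
Derl3, chr10:75893148-75893397, strand plus: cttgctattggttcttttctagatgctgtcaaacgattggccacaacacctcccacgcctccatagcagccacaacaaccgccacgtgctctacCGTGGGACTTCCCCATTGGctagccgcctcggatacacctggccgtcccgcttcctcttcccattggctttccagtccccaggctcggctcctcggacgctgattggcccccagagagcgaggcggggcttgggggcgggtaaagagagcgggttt

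The match began 65 bases before the start in Hspa5, 105 in Dnajc3, 98 in Pdia6 and 156 in Derl3, and Hsp90b1 had 2 matches, at 212 and 107 bases. Their mean ratios were 3.32, 4.14, 3.68, 2.84 and, for Hsp90b1, 1.63 after loess and -0.15 with median centring. 

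Genes for removal of misfolded proteins and for reticulum stress signalling were higher to a smaller extent. Of 24 tested, 18 were called higher and 1 lower, and the median of 1.17 after loess became -0.02 with median centring, still 0.29 above all items there. Herpud1, a scaffold of the degradation complex, gave 3.19, 3.39, 3.86 and 4.52. Selenos, a selenoprotein of the same complex, averaged 3.25, and Derl3, a channel component, gave 2.97, 3.00, 2.76 and 2.63. Xbp1, the transcription factor of secretory cells, averaged 1.31 after loess and -0.18 with median centring, and the ubiquitin ligase gene Syvn1 averaged 1.38 and -0.34. Trib3, a pseudokinase induced by stress, was the 1 member called lower, at -0.38. Of 33 tested genes for cargo transport between reticulum and Golgi, 32 were called higher and none lower, with a median of 1.66 that stood 1.70 and 0.74 above all items under the 2 scalings. Tmed3, a cargo receptor, gave 4.20, 3.83 and 3.96 on 3 arrays, and Mcfd2, a partner of the cargo lectin LMAN1, averaged 3.11 ± 0.07 (SD, n = 4). Of 28 Golgi genes, 16 (57.1%) were called higher and 8 (28.6%) lower, against 26.9% and 23.1% of all items. Their median was 0.49 after loess and -0.36 with median centring. The highest was the mannosidase gene Man1a at 5.08, with 3.73 and 4.63 at its other probes.

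Cytosolic ribosomal protein genes moved as a block. Of 71 tested, 70 were called higher, 32 at least 4-fold, with a median of 1.96 that stood 1.99 above all items after loess and 0.52 above them with median centring. Rplp1, an acidic stalk protein, had the highest ratio, with 3.08, 3.22, 3.20 and 2.81, and Rps14 averaged 2.93 with arrays from 2.74 to 3.15. Rpl14 was called lower, at -0.54, -0.44, -0.70 and -0.41. Many ribosomal genes have processed pseudogenes of near-identical sequence, so their single values are uncertain.

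Respiratory chain subunits were also higher nearly throughout after loess. Of 69 tested, 67 were called higher and none lower, and the median of 1.56 became -0.01 with median centring, which was 0.30 above all items there. Ndufa1, a complex I subunit, gave 4.01, 3.39, 4.20 and 3.55. Uqcrh of complex III averaged 2.52 and Cox4i1 of complex IV averaged 2.08. Proteasome subunits behaved in the same way after loess, with 32 of 34 called higher, 1 lower and a median of 1.00, but they stood 0.17 below all items with median centring, at -0.49. The distance between these bright genes and the rest of the array thus depended on the scaling.

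Prostatic fluid is known for its zinc, citrate and polyamines. Of 19 genes of zinc handling tested, 9 (47.4%) were called higher and 3 (15.8%) lower, against 26.9% and 23.1% of all items. The median log2 ratio of metallothioneins and zinc transporters was 0.13 and turned to -0.43 with median centring, to -0.04 with processed signals, to -0.002 without control 2 and to -0.05 within slide 1, so the list as a whole had no settled direction. The metallothionein genes Mt1, Mt2 and Mt3, whose proteins bind zinc, averaged 3.26, 3.37 and 2.44. The importer gene Slc39a8 gave 3.65, 3.22, 3.50 and 3.31. The exporter gene Slc30a4 was lower at -0.42, -0.28, -0.66 and -0.72. Slc30a9 (-0.34) lost its call without control 4, with an adjusted p of 0.0519 in limma's fit. Slc39a2, at -0.24 after loess and 0.01 with median centring, lost its call without control 1, 3 or 4, with adjusted p from 0.0635 to 0.0665 in the same fit.

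Among 13 tested genes of polyamine metabolism, 12 were called higher and none lower, and the median of 1.08 became -0.25 with median centring, 0.06 above all items there. Arg2, the mitochondrial arginase that makes ornithine, gave 3.79, 2.98, 4.25 and 4.36 with the reference above background on 1 array, so the size of these ratios is uncertain, and Amd1, which supplies decarboxylated S-adenosylmethionine, averaged 2.43. Ornithine decarboxylase, encoded by Odc1, averaged 1.02 ± 0.12 (SD, n = 4) after loess and -0.58 with median centring. The polyamine acetyltransferase gene Sat1 averaged 1.13. Of 28 tested genes for the citrate cycle and citrate carriers, 21 were called higher and 3 lower, with a median of 0.54 after loess and -0.84 with median centring. The malate dehydrogenase gene Mdh1 averaged 2.26, with arrays from 2.07 to 2.38.

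Antioxidant genes went both ways. Of 20 tested, 11 (55%) were called higher and 4 (20%) lower, against 26.9% and 23.1% of all items. The lower share was thus close to that of all items. The median was 0.71 after loess and -0.77 with median centring. Prdx6, a peroxiredoxin with phospholipase activity, gave 5.82, 6.68 and 6.23 on 3 arrays. Prdx6b, its near-identical intronless copy and not on the list, averaged 5.59, so the 2 may share signal and neither value is certain. Gpx3, the secreted glutathione peroxidase, gave 4.15, 4.17, 4.95 and 5.31, and the mitochondrial dismutase gene Sod2 averaged 2.14. The members called lower were Hmox1 at -0.97, Nqo1 at -0.88, Srxn1 at -0.72 and Txnrd1 at -0.68. Nqo1 was not well above background in the prostate channel on any array.

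**Figure D4:**
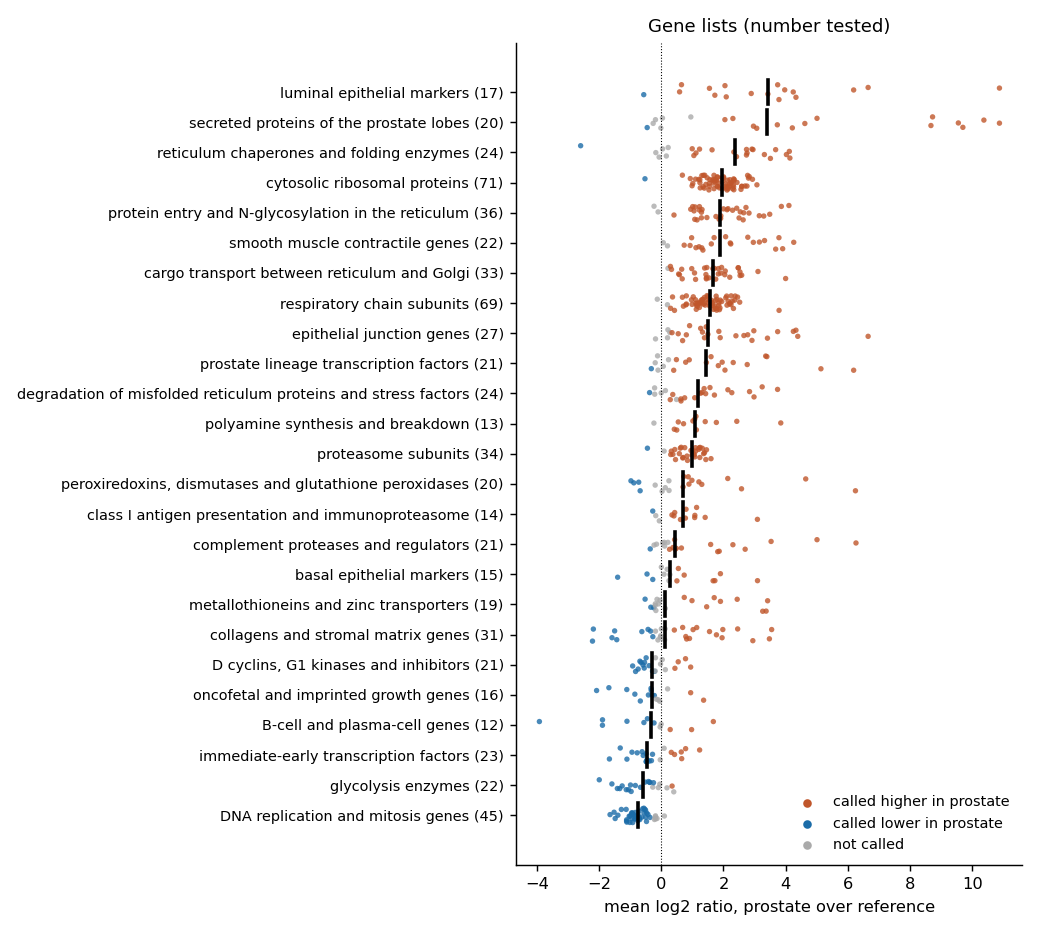
Mean log2 ratio of prostate over reference (horizontal axis) for each tested member of 25 gene lists, with the list median as a black bar; orange and blue points are called higher and lower, and grey points are not called. Medians run from 3.43 for luminal markers to -0.75 for replication and mitosis genes after loess; those of basal, zinc, matrix, respiratory, degradation, polyamine, proteasome, antioxidant and class I lists change sign with median centring.

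For several groups the side relative to all items also depended on the scaling. The citrate cycle median was 0.57 from that of all items after loess and -0.52 with median centring, and the antioxidant median 0.75 and -0.46. The same distances were 0.31 and -0.51 for basal, 0.73 and -0.48 for class I, 0.16 and -0.63 for matrix and 0.17 and -0.11 for zinc genes. They kept their side for luminal genes at 3.46 and 2.48, lineage factors at 1.49 and 1.20, junction genes at 1.54 and 1.62, and complement genes at 0.48 and 0.94. G1 regulators at -0.25 and -0.90 and immediate-early genes at -0.41 and -0.72 also did.

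Genes for DNA replication and mitosis were lower in the prostate. Of 45 tested, 39 were called lower and none higher, and the median of -0.75 stood 0.72 below that of all items after loess and 1.52 below it with median centring. None reached 4-fold, and 11 of the 39 were not well above background in the prostate channel on any array. Mcm7, a subunit of the replicative helicase, gave -1.41, -1.43, -1.88 and -1.87, a mean of -1.65 ± 0.27 (SD, n = 4) with an adjusted p of 2.74e-07 in limma's fit. Both arrays of slide 2 were lower than both of slide 1. Mcm3 averaged -1.52, the centromeric histone gene Cenpa -1.48, the mitotic kinase gene Aurka -1.39 and the cyclin gene Ccna2 -1.28. Pcna, the sliding clamp, averaged -0.75, and Top2a, the topoisomerase of dividing cells, averaged -1.03. Bub1, a checkpoint kinase, was not well above background in the prostate on any array, and its reference signal was at least 2.16-fold higher. Tpx2, a spindle factor, gave 0.04, 0.34, 0.12 and -0.10 after loess and was not called, against -0.71 with median centring.

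In these bounds, "at least" sets the mean signal of the brighter channel against a floor for the dimmer one, taken on each array as the higher of the probe's own signal and the faintest signal that the software still placed above background.

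The promoter of Ccnb1, the mitotic cyclin B1, is shown as an example of the CCAAT boxes common in this list. The sequence is from RefSeq on GRCm38.p6, with capitals on the letters CCAAT.

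Ccnb1, chr13:100786487-100786736, strand minus: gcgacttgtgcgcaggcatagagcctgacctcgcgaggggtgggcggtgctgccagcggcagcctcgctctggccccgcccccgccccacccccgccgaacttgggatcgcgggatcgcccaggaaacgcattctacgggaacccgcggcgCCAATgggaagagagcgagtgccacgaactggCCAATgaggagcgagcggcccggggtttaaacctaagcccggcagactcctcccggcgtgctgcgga

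The matches began 99 and 67 bases before the start. CCAAT occurred on either strand in 28 of 40 genes of this list (70%), against 37.5% of all genes. TTTGAA, the core of the cell cycle homology region, occurred in 10 of 40 (25%), against 18.3%. The folding list, whose genes were mostly higher, held CCAAT in 81.5%, so the same letters were common in lists of opposite direction. Ccnb1 itself gave -0.74, -1.02, -1.01 and -1.02 and was not well above background in the prostate on any array.

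Cell cycle regulators of G1 leaned the same way. Of 21 tested, 12 were called lower and 4 higher, with a median of -0.28. The kinase inhibitor genes divided, with Cdkn1c at 0.86, 1.00 and 0.97 on 3 arrays and Cdkn1a at -0.81, -0.81, -1.01 and -1.05. With median centring Cdkn1c lost its call, at 0.11 and an adjusted p of 0.407 in limma's fit.

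Glycolysis enzymes and their transporters were lower. Of 22 tested, 16 were called lower and 1 higher, and the median of -0.59 stood 0.56 below that of all items after loess and 1.74 below it with median centring. Enolase 1 (Eno1) gave -2.09, -1.92, -1.96 and -1.99, a mean of -1.99 ± 0.07 (SD, n = 4) and an adjusted p of 7.58e-09 in limma's fit. The 4 arrays were closely grouped. Slc16a1, a lactate carrier, averaged -1.59, and Slc2a1, the glucose carrier of most cells, averaged -1.41. Pgk1 averaged -1.12 and Gapdh averaged -1.05, the second on 3 arrays. Ldhb, the lactate dehydrogenase chain of oxidative tissue, was the exception at 0.35 after loess, but it was -0.88 with median centring and -0.13 with processed signals.

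Immediate-early and oncofetal genes leaned lower. Of 23 immediate-early genes tested, 15 were called lower and 6 higher, with a median of -0.45. The AP-1 member Fosl1 averaged -1.67 and the growth factor response gene Egr1 averaged -1.10, while Jund averaged 1.23 after loess and -0.51 with median centring. Of 16 oncofetal and imprinted genes, 10 were called lower and 2 higher. Hmga1, an architectural chromatin protein of growing cells, gave -2.08, -2.25, -1.93 and -2.05, and Dlk1, an imprinted membrane protein, averaged -1.68. Gpc3, a heparan sulfate proteoglycan, averaged 1.36. Ndrg1, known to respond to hypoxia and to androgen, gave -2.85, -2.52, -3.10 and -3.05, and Vegfa, the vascular growth factor, averaged -1.09. The androgen-responsive genes as a list did not share the direction of Ndrg1 after loess. Of 25 tested, 14 (56%) were called higher and 5 (20%) lower, with a median of 0.45 after loess and -0.31 with median centring.

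Smooth muscle genes marked the stroma. Of 22 tested, 20 were called higher and none lower, 11 at least 4-fold, and the median of 1.89 stood 1.92 and 0.79 above all items under loess and median centring. Smooth muscle myosin, encoded by Myh11, gave 3.98, 3.62 and 4.11 on 3 arrays. Synm, an intermediate filament protein, averaged 4.26, Csrp1 3.78 with arrays from 3.67 to 3.87, and the tropomyosin gene Tpm2 3.68. Calponin (Cnn1) averaged 2.96, desmin (Des) 2.78 and the smooth muscle actin gene Acta2 2.24.

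Matrix and fibroblast genes were split. Of 31 matrix genes tested, 15 (48.4%) were called higher and 9 (29%) lower, against 26.9% and 23.1% of all items. Their median of 0.12 turned to -0.95 with median centring. The calcification inhibitor gene Mgp gave 3.82, 3.40, 3.45 and 3.24. Sparcl1, a matricellular protein, averaged 3.55, dermatopontin (Dpt) 2.94 and the small proteoglycan gene Lum 1.98. The fibronectin gene Fn1 was lower at -2.18 ± 0.16 (SD, n = 4), thrombospondin 1 (Thbs1) averaged -2.21 and Fbln2 averaged -1.58. Vimentin (Vim), the filament of mesenchymal and cultured cells, gave -2.02, -2.09, -2.86 and -2.30, and S100a4 averaged -1.28. Of 23 fibroblast markers, 9 (39.1%) were called higher and 6 (26.1%) lower, against the same 26.9% and 23.1%.

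Complement genes were among the higher groups. Of 21 tested, 14 were called higher and 1 lower, with a median of 0.45. C1ra, a protease of the first complement component, gave 6.00, 5.95, 6.63 and 6.46, a mean of 6.26 ± 0.34 (SD, n = 4). Its partner C1s2, a copy of the C1s gene, averaged 5.01, and the C1 inhibitor gene Serping1 averaged 3.53. C1ra and C1s2 each have a near-identical copy in the genome, so the probes could read either. C1qc and C1qa, which macrophages make, averaged 2.70 and 1.82. C3, the central complement component, was lower at -0.47, -0.38, -0.48 and -0.09, and within controls 3 and 4 alone it was not called, with an adjusted p of 0.0858 in limma's fit.

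Immune cell genes differed by class. The beta-2 microglobulin gene B2m gave 3.23, 2.58, 3.29 and 3.26. Of 14 class I genes 11 were called higher and 1 lower, and the median of 0.70 turned to -0.80 with median centring. Of 8 class II genes 5 (62.5%) were called higher and 1 (12.5%) lower. H2-Ab1 was higher at 3.22. H2-Aa was higher at 1.66 after loess and 0.22, not called, with median centring (adjusted p of 0.103 in limma's fit). The invariant chain gene Cd74 was higher at 1.13 after loess but -0.58 with median centring. The lower gene was H2-Oa at -0.455, with 0.07 at another probe. Of 18 macrophage and neutrophil genes, 6 (33.3%) were called higher and 5 (27.8%) lower, close to the 26.9% and 23.1% of all items. Their median of -0.01 turned to 0.21 with median centring. The higher members included the lysozyme gene Lyz2 at 1.78 and the C1q genes, and the lower ones were Cd14 at -0.58, Fcer1g at -0.52, Msr1 at -0.31, S100a8 at -0.29 and S100a9 at -0.23, the last pair not above background in the prostate on any array. Of 14 T-cell genes, 1 (7.1%) was called higher and 5 (35.7%) lower, against 26.9% and 23.1% of all items. Cd4 was the higher gene, at 3.87, 3.86, 4.18 and 4.04. The lower genes included the T-cell receptor components Cd3g at -1.13 and Cd3e at -0.51. Of 12 B-cell and plasma-cell genes, 7 were called lower and 3 higher. The immunoglobulin joining chain gene Jchain gave -3.53, -3.50, -4.14 and -4.50 and Mzb1 averaged -1.89, while Blnk, an adaptor also found outside B cells, averaged 1.68 after loess and 0.07, not called, with median centring (adjusted p of 0.634 in limma's fit).

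Hormone and growth factor genes included a few with large ratios. Renin, encoded by Ren1, gave 6.32, 7.02 and 7.63 on 3 arrays, with the reference above background on 2 arrays, as for Esrp1 and Upk1b. The Ren2 probe read 3.67, 4.01, 5.50 and 5.42 although the C57Bl/6 strain is known to carry Ren1 without Ren2, so the probe may read Ren1 RNA and its value is uncertain. The angiotensin converting enzyme gene Ace averaged 3.40. Of 9 renin-angiotensin genes, 4 (44.4%) were called higher and none lower, against 26.9% and 23.1% of all items. Of 36 growth factor and receptor genes, 11 (30.6%) were called higher and 11 lower, close to the shares of all items, with a median of -0.05. Egf, epidermal growth factor, gave 3.01, 2.62, 4.86 and 4.57, with no overlap between slides. Igfbp5, an insulin-like growth factor binding protein, averaged 3.92, and the prolactin receptor gene Prlr averaged 3.10.

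Notch pathway genes are given because of the ROSA(N1IC) allele. Of 23 tested, 5 (21.7%) were called higher and 7 (30.4%) lower, close to the 26.9% and 23.1% of all items, with a median of -0.10. The Notch target genes Hes1 and Hey1 averaged 1.62 ± 0.16 (SD, n = 4) and 1.71 ± 0.34 (SD, n = 4). Notch1 gave 0.05, 0.30, 0.76 and 0.67. Within controls 1 and 2 alone Notch1 was not called, at 0.18 and an adjusted p of 0.248 in limma's fit. Dtx3, a Deltex family gene, was the lowest member at -1.02.

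Outside the lists, several genes with both channels above background had large ratios. Pnliprp1, a lipase-related protein, gave 6.33, 7.07, 7.57 and 7.55. Ceacam2, a cell adhesion molecule, averaged 6.71, Degs2, a sphingolipid hydroxylase, 5.27, and Neurl4 5.15. Kcnk1, a potassium channel, was not well above background in the reference on any array, and its prostate signal was at least 13.9-fold higher. The BMP receptor gene Bmpr1b was at least 14.8-fold higher by the same measure. Both bounds are for the mean over the arrays and need not hold on each. The ratios of both genes were lower on controls 1 and 2 than on controls 3 and 4. Of genes above background in the prostate on all 4 arrays and in the reference on none there were 5, and Mal2 (at least 3.97-fold), the Wnt inhibitor gene Wif1 (at least 2.71-fold) and the hydroxylase gene Cyp7b1 (at least 2.25-fold) were the rest.

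The lowest ratios belonged to genes bright in the reference. Osteopontin, encoded by Spp1, gave -4.56, -4.53, -4.87 and -4.96, a mean of -4.73 ± 0.22 (SD, n = 4). Cpeb2, an RNA-binding protein, averaged -4.50, the secreted nuclease gene Dnase1l3 -4.47 and Vash2, an angiogenesis regulator, -4.41, with -0.33 at another Vash2 probe. B3gnt2, a glycosyltransferase, averaged -4.47, but another tested probe of this gene read 1.23, so its direction is uncertain. The polymeric immunoglobulin receptor gene Pigr gave -3.65, -3.71, -4.18 and -4.06. Of genes above background in the reference and not in the prostate on any array, Higd1c was at least 5.2-fold lower, the lymphocyte adaptor gene Sh2d1a at least 3.91-fold, the acute-phase gene Saa3 at least 2.54-fold and the lymphocyte factor gene Irf4 at least 2.43-fold. In all, 819 of the 5157 lower items were not well above background in the prostate on any array, and 9 of the 6009 higher items were not above it in the reference.

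A small share of items differed among the 4 controls in step with the slide. Controls 1 and 2 shared slide 1 and controls 3 and 4 shared slide 2, per the file headers, so slide and sample cannot be told apart beyond these pairs. Of 17272 items with values on all 4 arrays, 102 (0.591%) were higher on slide 2 and 31 (0.179%) were lower at an adjusted p below 0.05 in limma's fit. These counts include items with a channel not above background, such as Kcnk1 and Bmpr1b, for which no size of the difference is given. Among genes with the reference above background on at least 3 arrays, Egf differed by 1.90, Ren2 by 1.62 and Cdh1 by 1.11, all higher on slide 2, with adjusted p of 0.00949, 0.00949 and 0.016 in limma's fit.

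Genes lower on slide 2 included 3 of the secreted proteins. Pbsn was lower on slide 2 by 1.25 and Defb50 by 1.26, and Tgm4 averaged 10.23 on slide 1 and 8.88 on slide 2, with adjusted p of 0.0275, 0.0479 and 0.0335 in limma's fit. The secreted list as a whole was not lower there, with medians of 3.20 and 3.44 on controls 1 and 2 and 3.44 and 3.93 on controls 3 and 4, and Azgp1 and Clu did not pass the test. Car3, a carbonic anhydrase of muscle and fat, averaged 3.00 on slide 1 and 1.14 on slide 2. Svs4 and Svs5 were highest on control 2, and other seminal vesicle genes such as Svs6 were high on control 2 alone. Tnni2, Mylpf and Myl1 were highest on control 1. These muscle genes were not raised on both slide 1 arrays, with 0.65 for Tnni2 and 1.50 for Mylpf on control 2. Several of the genes with the largest spread were not ordered by slide: the connexin gene Gjd3 gave 3.69, 2.12, 3.08 and 1.50, and the unnamed transcript TC1756779 gave 3.81, -0.32, 3.58 and -0.44, high on controls 1 and 3 and near 0 on controls 2 and 4. The unnamed transcript AK035647 had the same pattern, at 2.11, -0.50, 2.18 and -0.68. Both transcripts were not called.

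**Figure D5:**
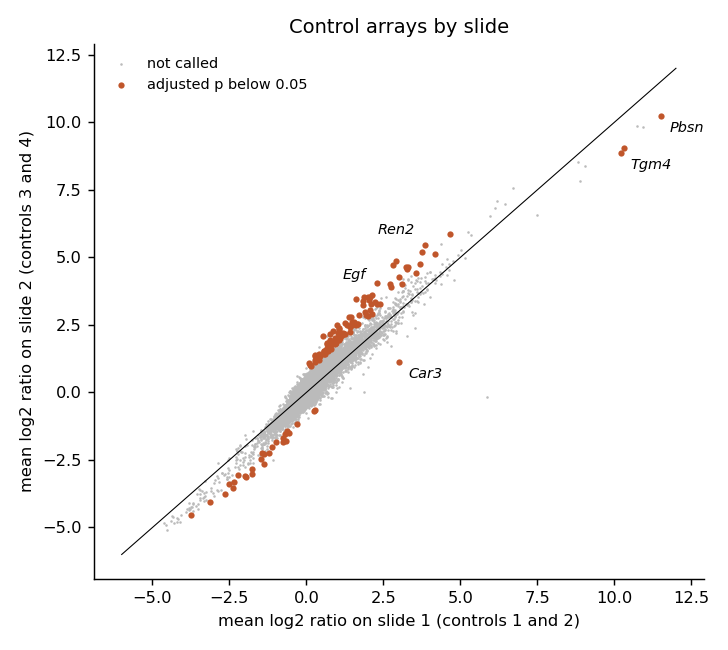
Mean log2 ratio of prostate over reference on slide 2 (vertical axis) against slide 1 (horizontal axis) for 17272 items, with the line of equality; orange points have an adjusted p below 0.05 for the difference. Egf and Ren2 lie above the line and Pbsn, Tgm4 and Car3 below it.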

How the data were processed

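Total RNA of 4 control prostate samples was read in the red channel of Agilent arrays, with universal reference RNA in the green. The scanner files hold spot intensity values deposited by the authors, made with Agilent Feature Extraction 10.7.3.1 per the file headers, together with local background intensity and background and outlier flags. The processed signals and the log10 ratio of red over green come from the same software, per the file headers. The authors' value table holds log2 ratios deposited without a statement of scale or direction. Each of its columns correlated with its own array's log ratio at r = 0.989 to 0.995, which gives red over green.

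Median signals were corrected with normexp (offset 50) and loess within each array, control spots at weight 0 and outlier spots missing. Spots of a probe were averaged, and the brightest tested probe stood for a gene. RefSeq accessions named 24375 of 41174 probes. Tested items had either channel well above background on 3 arrays or more, and 3 values or more, the second condition added after the files were seen. limma 3.58.1 in R 4.3.3 tested each mean against 0, with the Benjamini-Hochberg adjustment over all items, and the script was tested on simulated data. Slides were compared in the same way. Members and lists were chosen with earlier results of these data known. Genes could be named if they belonged to a list, or were among the 12 with the highest or lowest mean ratio, the largest bound either way, or the largest SD over arrays. Each array measures both RNAs, so the ratio pairs the channels. Alternatives covered background correction, scaling, filters, probe choice, slides and leaving out each array. PB-NICD samples were not analysed here, and some genes of the lists are not reported here.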

Additional observations from a re-analysis of the deposited data

Results flagged for a closer look

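Of the named genes with values on all 4 arrays, 160 were checked for an array whose log2 ratio lay far from the other 3, and 8 had one; chance marks about 1 in 20. Control 2 was high for Wfdc15b, at 3.388 against -0.013 to 0.377 on the other arrays. It was also high for Cdo1, at 2.684 against 0.095 to 0.231, and less negative for Slc16a1, at -1.338 against -1.676 to -1.658. Control 2 was low for B2m, at 2.582 against 3.234 to 3.292, and for 9530003J23Rik, a lysozyme-like gene, at 2.629 against 3.17 to 3.278. Control 1 was high for Tnni2, at 3.055 against 0.65 to 0.689, and less negative for Ccnb1, at -0.737 against -1.021 to -1.013. Control 3 was high for Mcfd2, at 3.212 against 3.063 to 3.086. Wfdc15b and Cdo1 were high on the array with the highest seminal vesicle ratios, and Tnni2 on the array with the highest fast muscle ratios; the part of those tissues was not tested.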

How the results depend on the processing

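The scaling within arrays changed most. With processed signals, 9481 items were lower, 967 at least 4-fold higher and 576 at least 4-fold lower. With median centring, 11372 items were lower, 228 at least 4-fold higher and 1337 at least 4-fold lower. Without a replicate block, treating the channels as unpaired, 3680 items were higher and 1446 lower, against 6009 and 5157 with the pairing. Tested against a 2-fold difference, 1448 were higher and 256 lower. Leaving out each array gave 5379 to 5942 higher, 4055 to 5300 lower, 625 to 663 at least 4-fold higher and 123 to 136 at least 4-fold lower. With median centring the mean log2 ratio changed sign for Wfdc15b (-0.23), Krt8 (-0.20), Krt14 (-1.28), Hsp90b1 (-0.15), Canx (-0.22), Syvn1 (-0.34), Ero1b (-0.19), Xbp1 (-0.18), Odc1 (-0.58), Slc39a2 (0.006), Ldhb (-0.88), Tpx2 (-0.71), Jund (-0.51), Cd74 (-0.58), Cdo1 (-0.14) and AK035647 (-0.88). With processed signals it did for Krt14 (-0.021) and Ldhb (-0.125). Ero1b turned to -0.10 with outlier spots kept and, leaving out each array, ranged from -0.22 to 0.164. The cause was not tested. Low prostate signal over background limits the lower ratios of dim genes.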
